A study of Mus musculus with 16 samples.

Results

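Marker genes of the hippocampal subfields, 40 in all, were followed in whole hippocampus of 16 mice: 8 genes of CA1, 16 of CA2 and CA3 and 16 of the dentate gyrus, of 12266 genes measured. The genes came from a list of subfield markers, and each was read from its brightest probe set over the 16 arrays among probe sets with 1 gene symbol. All 40 members lay above the filter on low values (3.58 log2 units), so none was lost. RNA was hybridised to Affymetrix mouse arrays, 1 array per animal. The mice were females of the 3xTG-AD line, aged 14 months, a line that carries mutant human amyloid precursor protein, presenilin and tau genes, and both groups carried the same alleles. The 8 control animals had a control diet. The 8 PIO animals had pioglitazone, an agonist of the nuclear receptor PPAR gamma, at 84 ppm in the diet, a dose near 18 mg/kg/day, from 10 months of age for about 14 weeks. A neuronal promoter drives the human precursor and tau transgenes in this line, and the tissue is a bulk sample in which fewer cells of a type and less RNA per cell cannot be told apart. Values are log2 expression, and differences are PIO minus control in log2 units.

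The hippocampus is a loop of excitatory neurons. Granule cells of the dentate gyrus receive cortical input and send mossy fibres to CA3 pyramidal cells, which project to CA1, the main output field, while the small CA2 field lies between CA3 and CA1 and serves social memory. Each field has its own set of transcription factors, receptors and adhesion proteins, and the markers are used as a rough gauge of the fields in a sample. How well they gauge the share of each field in these samples was not tested. In Alzheimer's disease CA1 pyramidal cells are among the neurons lost early. All 10 listed genes of hippocampal excitatory neurons, among them Slc17a7, Neurod6, Camk2a and Zbtb20, lay above the filter, as did most genes listed for other brain tissue, so this does not tell hippocampus from its neighbours. The assignment of a member to 1 field cannot be checked in whole tissue and rests on the list.

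The upstream sequence of 1 member per subfield is shown, that of the gene whose lowest array lay farthest below its median over 16 arrays. In all 3 the lowest array was that of PIO animal 14 or 15, described next. Each run holds the 250 bases before the transcription start listed by RefSeq on GRCm38.p6, given 5′ to 3′ on the gene's strand. Of the 40 members 33 had an entry, and Pou3f1, Spink8, Rgs14, Nptx1, St18, Trhr and Rspo3 had none. Capitals mark the GC box GGGCGG on either strand, where CCGCCC is its reverse complement.
Fibcd1 (chr2:31846006-31846255, minus strand): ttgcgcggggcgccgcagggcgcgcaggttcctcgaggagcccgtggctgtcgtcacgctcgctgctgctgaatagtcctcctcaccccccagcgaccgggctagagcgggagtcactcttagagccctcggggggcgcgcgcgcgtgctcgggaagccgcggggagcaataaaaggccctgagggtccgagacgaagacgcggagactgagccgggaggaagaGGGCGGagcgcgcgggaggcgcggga
Homer3 (chr8:70282749-70282998, plus strand): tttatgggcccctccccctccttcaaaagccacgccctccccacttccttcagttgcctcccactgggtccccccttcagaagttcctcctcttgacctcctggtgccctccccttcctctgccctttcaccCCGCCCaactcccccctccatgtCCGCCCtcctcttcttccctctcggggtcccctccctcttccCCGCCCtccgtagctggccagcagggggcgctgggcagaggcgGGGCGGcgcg
Lct (chr1:128328319-128328568, minus strand): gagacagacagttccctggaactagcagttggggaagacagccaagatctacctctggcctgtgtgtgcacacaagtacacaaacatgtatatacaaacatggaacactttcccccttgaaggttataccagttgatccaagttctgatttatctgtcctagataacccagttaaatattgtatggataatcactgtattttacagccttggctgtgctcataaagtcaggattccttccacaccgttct
The Fibcd1 window held 1 GC box and the Homer3 window 4, in windows that were 71.6% and 68.0% G or C. The Lct window held 0 in 42.8% G or C. The CCAAT box and TATAAA, searched the same way on both strands with no overlap between matches of 1 motif, were in none of the 3 windows. Of 32851 windows of that length over all genes, 32.7% held a GC box, 33.9% a CCAAT box and 12.4% TATAAA. Of the 33 member windows, 20 held a GC box (60.6%), 11 a CCAAT box (33.3%) and 5 TATAAA (15.2%). The members gave 1 window per gene, while the 32851 windows hold every listed start of a gene. The percentages of members and of all genes are therefore in unlike units.

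Among the arrays, 2 stood apart in the members. PIO animals 14 and 15 held the lowest of the 16 values in 9 and 13 of the 40 members, 22 together, and no other animal did so in more than 2. In 17 members both animals lay below all of the other 14 animals, which is 42.5% of the members, and the same held for 3.8% of all genes. The 2 animals were singled out after their low values in these members were seen. The larger share among members is therefore no independent result. The 17 were Fibcd1, Pou3f1, Spink8, Man1a and Gpr161 of CA1, Amigo2, Bok, Cpne4, Nptx1, Homer3, Tgfb2 and St18 of CA2 and CA3, and Prox1, Dsp, Tdo2, Trpc6 and Lct of the dentate gyrus. Both animals lay above all of the others in 3 members, Wfs1, Pcp4 and Plk5, or 7.5% of members beside 6.12% of all genes. Striatal markers stood highest in the same 2 animals. Of the striatal genes listed, 12 were measured, and Drd2, Ido1, Isl1 and Sh3rf2 lay below the filter. The centred mean of the 12 was 0.69 and 0.81 in PIO animals 14 and 15, against -0.38 to 0.22 in controls and -0.22 to 0.09 in the other PIO animals. The mean of 14 measured myelin genes was lowest there too, at -0.31 and -0.57, against -0.15 to 0.33 in controls. The part of striatal or myelin tissue in the members' values was not tested. Rxrg, a retinoid receptor, differed by 0.61 (SE 0.15, adjusted p = 0.532) between diets and Penk, the enkephalin precursor, by 0.77 (SE 0.33, adjusted p = 0.681). Pcp4 is known from striatal as well as hippocampal neurons. PIO animals 10 and 11 held the highest value in 11 and 8 members. The counts, subfield medians, balances and members' differences below are given with and without PIO animals 14 and 15. Since these animals held the lowest values of many members, leaving them out raises those PIO means by arithmetic. The upward turn of the medians below is therefore no independent result. The lists of other genes are given with all animals.

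**Figure D1:**
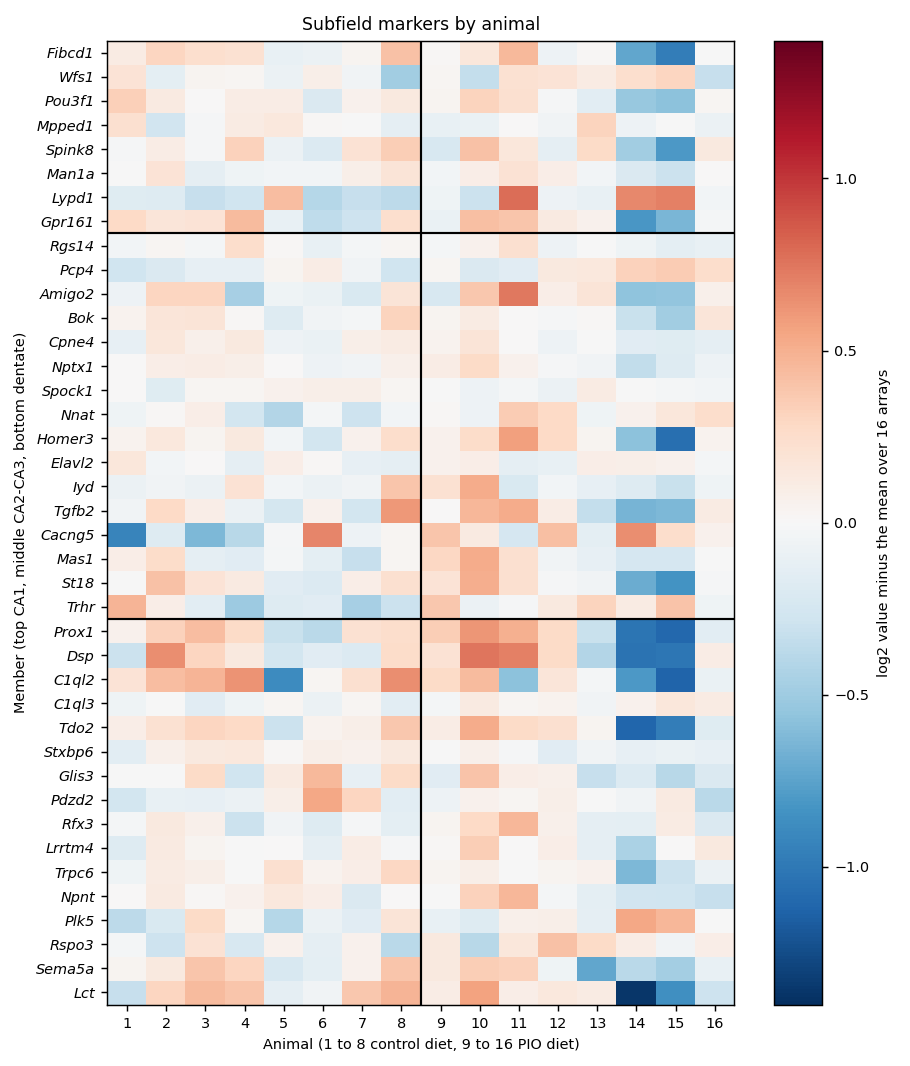
Log2 value of each of the 40 members (rows) in each of the 16 animals (columns), minus the member's mean over all arrays; red is higher and blue lower. The columns of PIO animals 14 and 15 hold many blue cells in all 3 subfields, with Lct, Prox1, Tdo2 and Dsp among the deepest. Red cells there include Lypd1, Plk5, Pcp4 and, in PIO animal 14, Cacng5.

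The diet comparison asked whether pioglitazone shifted the subfield markers. No member had a limma adjusted p under 0.05 over the 12266 genes, and no gene did (0%). Among members the smallest adjusted p was 0.644. An unadjusted p under 0.05 was found for 7 of 40 members, beside 7.00% of all genes (859 genes). Of these, 5 were higher and 2 lower with PIO, where 3.86% of all genes were higher and 3.15% lower. Without PIO animals 14 and 15 the 7 became 2, Nnat and C1ql3, beside 4.21% of all genes. In no member did the 8 PIO animals lie wholly outside the 8 controls. Of all genes 0.0326% did so, namely Gopc, Rps6ka6, Rxrg and Lncppara, named here after their values were seen. The median difference over all members was -0.055, with 14 higher and 26 lower, and over all genes it was 0.0045. Without PIO animals 14 and 15 it was 0.029, with 26 higher and 14 lower.

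**Figure D2:**
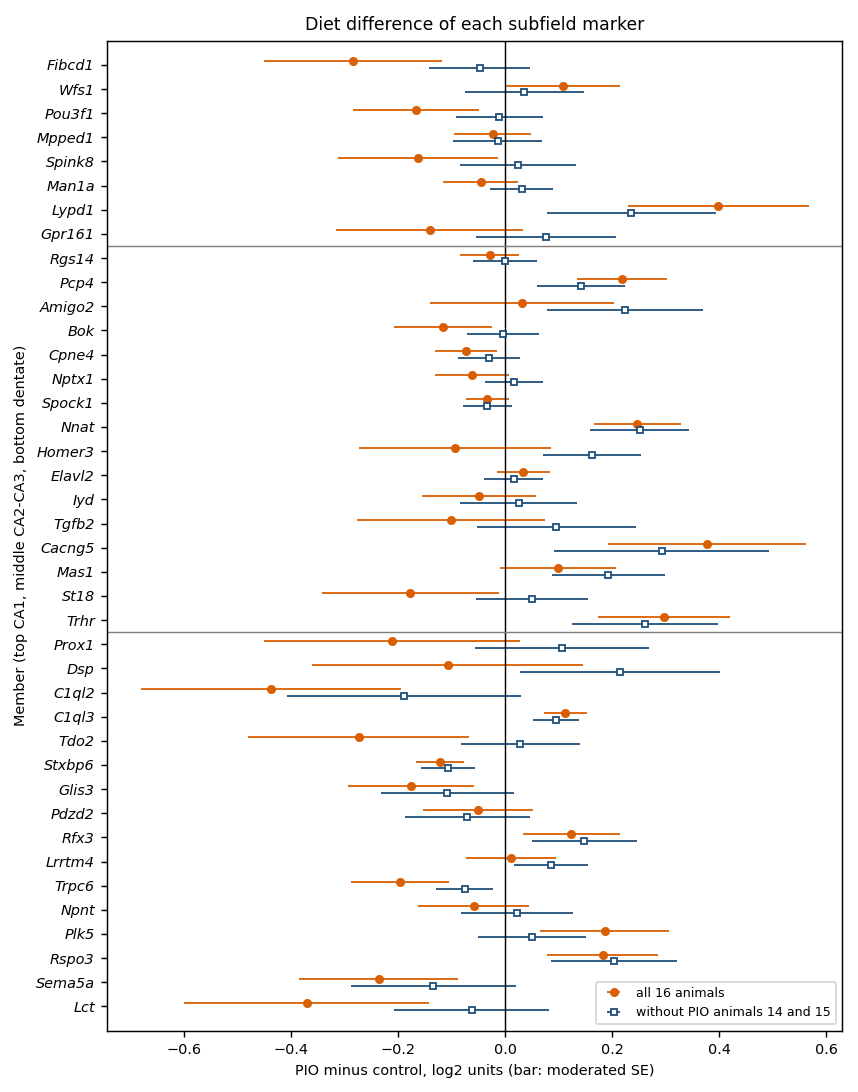
PIO minus control in log2 units for each member (circles, all 16 animals; squares, without PIO animals 14 and 15), with moderated SE as bars. Without the 2 animals the squares of Prox1, Tdo2 and Fibcd1 lie near 0 or above it, and those of Nnat and C1ql3 stay to the right.

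Of the 8 CA1 markers, 6 were lower and 2 higher with PIO, with a median difference of -0.094 and none past the test. Without PIO animals 14 and 15 the direction turned, with 5 higher, 3 lower and a median of 0.027. Lypd1, a membrane-anchored protein that binds nicotinic receptors, ran from 9.36 to 10.18 with a median of 9.45 in controls, and from 9.45 to 10.54 with a median of 9.70 with PIO. PIO animals 11, 14 and 15 and control animal 5 held the high values. Of the other 5 PIO animals, 4 lay at 9.65 to 9.72, above the other 7 controls, which reached 9.58, and PIO animal 10 lay among those controls. The difference was 0.40 (SE 0.17, limma adjusted p = 0.681), and without PIO animals 14 and 15 it was 0.24 (SE 0.16). The second Lypd1 probe set differed by 0.25 (SE 0.24). Fibcd1, an acetyl-group receptor with a fibrinogen domain that marks CA1 pyramidal cells, ran from 10.52 to 11.04 in controls, median 10.79, and from 9.65 to 11.07 with PIO, median 10.63. PIO animals 14 and 15, at 9.89 and 9.65, were the only animals under the control range. Its difference of -0.28 (SE 0.17, adjusted p = 0.762) was -0.048 (SE 0.095) without them. Spink8, of the Kazal family of protease inhibitors, lay between 9.35 and 9.89 in controls, median 9.59, and between 8.74 and 9.96 with PIO, median 9.55. Its lowest values were again in PIO animals 15 and 14, at 8.74 and 9.06. The difference was -0.16 (SE 0.15, adjusted p = 0.855) with all animals and 0.024 (SE 0.11) without these 2.

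In the probe set used, the other CA1 members differed by less than 2 of their SE. A second Pou3f1 probe set differed by -0.23 (SE 0.11). Gpr161, a ciliary receptor that restrains Hedgehog signalling, differed by -0.14 (SE 0.17), and by 0.077 (SE 0.13) without PIO animals 14 and 15, where it stood at 9.38 and 9.56 against 9.83 or more in the other 14 animals. Pou3f1, a POU-domain transcription factor, differed by -0.17 (SE 0.12) and by -0.011 (SE 0.081) without them. Man1a, a Golgi mannosidase, differed by -0.046 (SE 0.070), and by 0.031 (SE 0.059) without them. The phosphoesterase gene Mpped1 differed by -0.023 (SE 0.072) and by -0.014 (SE 0.083) without them. Wfs1, an endoplasmic reticulum protein of CA1 that is mutated in Wolfram syndrome, went the other way at 0.11 (SE 0.11), and was highest in PIO animals 15 and 14, at 11.52 and 11.45, without which the difference was 0.036 (SE 0.11). No single direction was therefore shared by the 8 CA1 markers in these 2 animals: 5 lay below all the other animals, 1 above and 2 within the range.

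Among markers of CA2, the field between CA3 and CA1, Pcp4, a small calmodulin-binding protein, ran from 13.27 to 13.66 in controls, median 13.43, and from 13.34 to 13.90 with PIO, median 13.69. In 5 of 8 PIO animals it lay above the highest control, and PIO animals 14 and 15 were the 2 highest. The difference was 0.22 (SE 0.085, adjusted p = 0.681) and without them 0.14 (SE 0.082). Pcp4 is expressed in granule cells and striatal neurons as well as in CA2. Rgs14, a signalling scaffold that restrains plasticity in CA2, differed by -0.029 (SE 0.055), less than its SE, and by -0.0011 (SE 0.060) without PIO animals 14 and 15. Cacng5, an AMPA receptor auxiliary subunit enriched in CA2, ran from 6.91 to 8.51 in controls, and its highest PIO value was 8.48. The mean of control animals 1 to 4 was 7.30, against 7.98 in control animals 5 to 8, 8.09 in PIO animals 9 and 10 and 8.00 in PIO animals 11 to 16. The diet difference of 0.38 (SE 0.19, adjusted p = 0.724) was 0.013 within arrays numbered 10 to 24 and 0.29 (SE 0.20) without PIO animals 14 and 15. Amigo2, an adhesion protein of CA2 and CA3, differed by 0.032 (SE 0.17) and by 0.22 (SE 0.15) without PIO animals 14 and 15, which held its lowest values, 7.02 and 7.04.

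Among the CA3 members the smallest p belonged to Nnat, an imprinted membrane protein of the endoplasmic reticulum. It ran from 13.11 to 13.61 in controls, median 13.47, and from 13.45 to 13.88 with PIO, median 13.63. In 4 of 8 PIO animals it was above the highest control, and PIO animals 14 and 15, at 13.58 and 13.68, were in the middle of the PIO range. The difference was 0.25 (SE 0.081, adjusted p = 0.644), a 1.19-fold higher level, and 0.25 (SE 0.092, adjusted p = 0.968) without these 2 animals. Trhr, the receptor of thyrotropin-releasing hormone, ran from 8.32 to 9.30 in controls, median 8.65, and from 8.74 to 9.22 with PIO, median 8.95. The 2 ranges overlapped, with control animal 1 the highest of all 16. The difference was 0.30 (SE 0.12, adjusted p = 0.681) and 0.26 (SE 0.14) without PIO animals 14 and 15. The second Trhr probe set differed by 0.53 (SE 0.19), in the same direction.

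Homer3, a scaffold of group I metabotropic glutamate receptors, had the lowest array farthest below its median among the CA2 and CA3 members. It ran from 7.79 to 8.30 in controls, median 8.11, and from 7.00 to 8.63 with PIO, median 8.11. PIO animals 15 and 14 were lowest at 7.00 and 7.48, and PIO animal 11 was highest. The difference was -0.094 (SE 0.18, adjusted p = 0.934) with all animals and 0.16 (SE 0.091) without these 2. St18, a zinc finger transcription factor, was 8.91 and 9.05 in PIO animals 15 and 14 and 9.56 or more in every other animal. Tgfb2, a growth factor of the TGF beta family, was 9.88 and 9.89 in PIO animals 14 and 15 and 10.19 or more elsewhere. The differences for St18 and Tgfb2 were -0.18 (SE 0.17) and -0.10 (SE 0.18), and both were above 0 without the 2 animals, at 0.050 (SE 0.10) and 0.096 (SE 0.15).

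The remaining CA3 members differed by less than 1.5 of their SE. Bok, a pro-apoptotic protein of the Bcl-2 family and a classical CA3 marker, differed by -0.12 (SE 0.091), the calcium sensor Cpne4 by -0.073 (SE 0.057), and Nptx1, a secreted pentraxin that clusters AMPA receptors, by -0.062 (SE 0.068). All 3 were lowest in PIO animals 14 and 15, and without them the differences were -0.0038 (SE 0.067), -0.030 (SE 0.059) and 0.016 (SE 0.054). Mas1, the receptor of angiotensin 1-7, differed by 0.098 (SE 0.11) and Elavl2, a neuronal RNA-binding protein, by 0.034 (SE 0.049). The proteoglycan gene Spock1 differed by -0.033 (SE 0.040), while its second probe set had 0.13 (SE 0.076). Iyd, an iodotyrosine deiodinase, was only slightly above the filter at 3.77 to 4.60 and differed by -0.049 (SE 0.11). Without PIO animals 14 and 15 the differences were 0.19 (SE 0.11) for Mas1, 0.016 (SE 0.055) for Elavl2, -0.034 (SE 0.046) for Spock1 and 0.025 (SE 0.11) for Iyd. Over all 16 CA2 and CA3 members, 7 were higher and 9 lower with PIO. Their median difference was -0.031, and 0.073 without PIO animals 14 and 15.

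**Figure D3:**
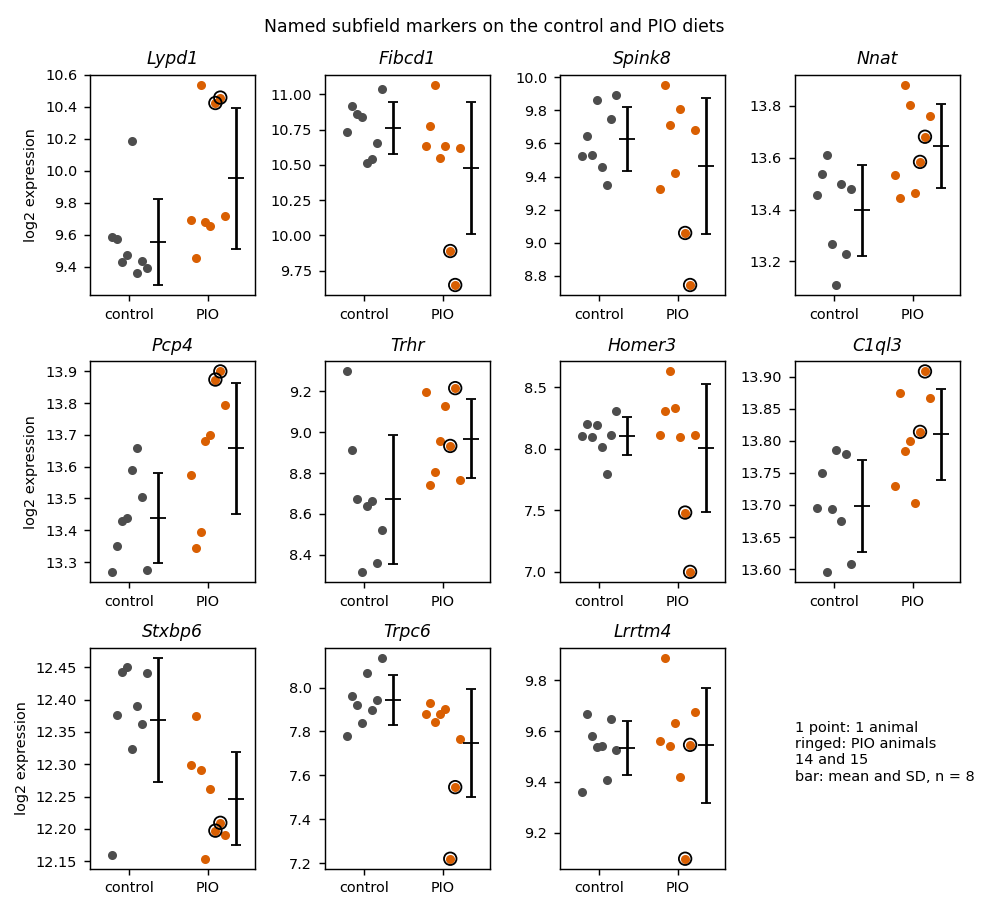
Log2 expression of 11 members in each of the 8 control and 8 PIO animals, with mean and SD as bars and PIO animals 14 and 15 ringed. The ringed points lie lowest in Fibcd1, Spink8, Homer3 and Trpc6, highest in Pcp4, and among the other PIO animals in Nnat and Stxbp6.

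In the dentate gyrus 11 of 16 markers were lower and 5 higher with PIO, with a median difference of -0.11, and none passed the test. The direction turned here too without PIO animals 14 and 15, with 9 higher, 7 lower and a median of 0.025. C1ql3 encodes a secreted C1q-like protein of synapses. It ran from 13.60 to 13.79 in controls, median 13.70, and from 13.70 to 13.91 with PIO, median 13.81. In 5 of 8 PIO animals it was above the highest control; the other 3 lay within the control range. The difference was 0.11 (SE 0.040, adjusted p = 0.677), and 0.095 (SE 0.043, adjusted p = 0.968) without PIO animals 14 and 15. Its other 2 probe sets differed by 0.14 (SE 0.061) and 0.17 (SE 0.085), the same way. Its paralogue C1ql2, a protein of the mossy fibre synapse, ran from 8.54 to 10.07 in controls and from 8.30 to 9.86 with PIO. The lowest values were in PIO animal 15, control animal 5 and PIO animal 14, in that order, so the low arrays were not of 1 diet. C1ql2 differed by -0.44 (SE 0.24, adjusted p = 0.761), and by -0.19 (SE 0.22) without the 2 PIO animals.

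Stxbp6, a SNARE-binding protein also called amisyn, ran from 12.16 to 12.45 in controls, median 12.38, and from 12.15 to 12.37 with PIO, median 12.24. Control animal 1 lay at 12.16 and the other controls at 12.32 or more. The difference was -0.12 (SE 0.045, adjusted p = 0.681), and -0.11 (SE 0.051) without PIO animals 14 and 15. A second Stxbp6 probe set differed by 0.12 (SE 0.077), in the opposite direction, so the 2 probe sets of the gene disagreed. Trpc6, a diacylglycerol-gated cation channel, ran from 7.78 to 8.13 in controls, median 7.93, and from 7.22 to 7.93 with PIO, median 7.86. The lowest of all 16 were PIO animals 14 and 15, at 7.22 and 7.55. The difference was -0.20 (SE 0.091, adjusted p = 0.710), and -0.076 (SE 0.053) without them. Lrrtm4, a postsynaptic adhesion protein of granule cells, ran from 9.36 to 9.67 in controls and from 9.10 to 9.89 with PIO, with medians of 9.54 and 9.55, and differed by 0.011 (SE 0.084, adjusted p = 0.989). PIO animal 14 was the lowest and PIO animal 10 the highest of the 16, and without PIO animals 14 and 15 the difference was 0.085 (SE 0.069).

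The widest spread was in genes of mature granule cells. Prox1, the homeobox factor that sets granule cell identity, was 7.13 and 7.06 in PIO animals 14 and 15 and 7.78 to 8.77 in the other 14 animals. Dsp, the junction protein desmoplakin, was 8.64 and 8.66 there and 9.25 to 10.41 elsewhere. Tdo2, which opens the ring of tryptophan, was 5.84 and 5.98 there and 6.65 to 7.47 elsewhere. Lct, the lactase gene that marks granule cells, was 7.75 and 8.25 there and 8.79 to 9.67 elsewhere. In each of the 4 genes the 2 animals lay clear of all the others. Their diet differences were -0.21 (SE 0.24) for Prox1, -0.11 (SE 0.25) for Dsp, -0.27 (SE 0.21) for Tdo2 and -0.37 (SE 0.23) for Lct. Without the 2 animals these became 0.11 (SE 0.16), 0.21 (SE 0.19), 0.028 (SE 0.11) and -0.063 (SE 0.14). All 3 Prox1 probe sets were lower with PIO over the 16 arrays, by -0.21, -0.27 and -0.48.

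The other dentate members were scattered. Sema5a, a guidance protein, differed by -0.24 (SE 0.15) and had its lowest value in PIO animal 13. The transcription factor genes Glis3 and Rfx3 differed by -0.18 (SE 0.12) and 0.12 (SE 0.090). Plk5, a polo-like kinase, differed by 0.19 (SE 0.12) and was highest in PIO animals 14 and 15, at 6.82 and 6.73. Rspo3, a secreted amplifier of Wnt signalling, differed by 0.18 (SE 0.10), Pdzd2 by -0.051 (SE 0.10) and Npnt, an integrin ligand of the matrix, by -0.059 (SE 0.10). Without PIO animals 14 and 15 the differences were -0.13 (SE 0.15) for Sema5a, -0.11 (SE 0.12) for Glis3, 0.15 (SE 0.099) for Rfx3 and 0.049 (SE 0.10) for Plk5. They were 0.20 (SE 0.12) for Rspo3, -0.071 (SE 0.12) for Pdzd2 and 0.022 (SE 0.10) for Npnt. Of the 18 members with more than 1 probe set above the filter, 12 had all probe sets in 1 direction. The 6 with mixed directions were Amigo2, Spock1, Elavl2, Stxbp6, Npnt and Sema5a.

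To set the subfields against each other, each member was centred on its mean over the 16 arrays and averaged within its subfield in each animal. No test was applied to these means, since the members were chosen with results of these data known. The dentate mean was 0.051 ± 0.11 (SD, n = 8) on the control diet and -0.051 ± 0.25 (SD, n = 8) on the PIO diet. The CA1 mean was 0.020 ± 0.085 and -0.020 ± 0.19, and the CA2 and CA3 mean was -0.018 ± 0.072 and 0.018 ± 0.14. Each shift between diets was smaller than the SD between PIO animals. The SD was larger with PIO in all 3 subfields. PIO animals 14 and 15 lay at -0.43 and -0.36 in the dentate mean, at -0.24 and -0.29 in the CA1 mean and at -0.16 and -0.21 in the CA2 and CA3 mean, the 2 lowest of the 16 in each. All 3 means of members were thus low in the same 2 animals, and most so for the dentate members. In PIO animals 14 and 15 the means of other listed genes were -0.059 and -0.14 for CA1 and -0.0073 and -0.21 for CA2. They were -0.10 and 0.20 for CA3 and -0.0025 and 0.016 for the dentate gyrus. The low means of members were thus not shared by all genes listed for the fields.

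The balance of dentate over CA1, the difference of the 2 means, was 0.031 ± 0.14 in controls and -0.031 ± 0.15 with PIO. It ran from -0.21 (control animal 1) to 0.20 (control animal 3) in controls and from -0.19 (PIO animal 14) to 0.19 (PIO animal 10) with PIO, so the diets covered much the same span. The difference of -0.062 was -0.033 within the largest batch, -0.14 within arrays 10 to 24 and -0.028 without PIO animals 14 and 15. The balance of dentate over CA2 and CA3 was 0.069 ± 0.091 in controls and -0.069 ± 0.12 with PIO, a difference of -0.14 that exceeded either SD. It ran from -0.040 to 0.20 in controls and from -0.27 to 0.082 with PIO. The 4 PIO animals 13 to 16, on arrays 21 to 24, lay below every control. PIO animals 9 to 12 lay within the control range, and no control array had a number above 13. Within the largest array batch, with 5 control and 6 PIO arrays, this difference was -0.082, and within arrays 10 to 24 it was -0.15. Without PIO animals 14 and 15 it was -0.091. The balance of CA1 over CA2 and CA3 was 0.038 ± 0.11 in controls and -0.038 ± 0.10 with PIO, a difference of -0.076. It was -0.049 within the largest batch, -0.0067 within arrays 10 to 24 and -0.062 without PIO animals 14 and 15. In arrays 1 to 6 the mean was 0.076 in 4 control animals and -0.13 in 2 PIO animals.

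**Figure D4:**
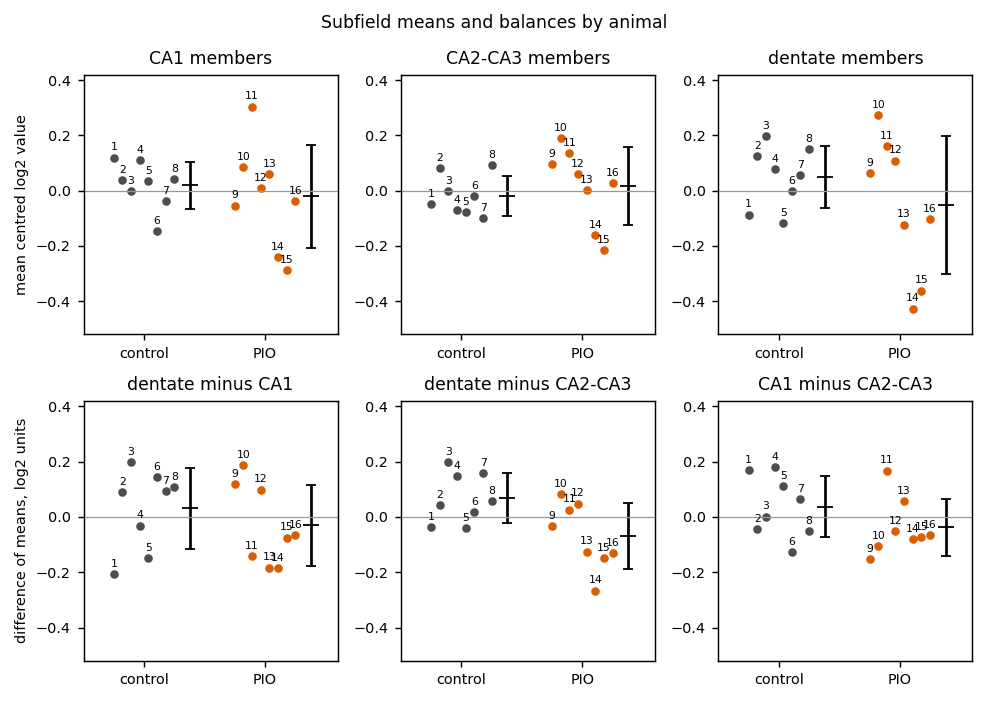
Mean centred log2 value of the members of each subfield (top) and the 3 differences between subfields (bottom) in each animal, numbered, with the mean and SD of each diet (n = 8) as bars. PIO animals 14 and 15 are lowest in all 3 top panels, while the diets overlap in each panel. In dentate minus CA2-CA3, PIO animals 13 to 16, on arrays 21 to 24, lie below every control.

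**Figure D5:**
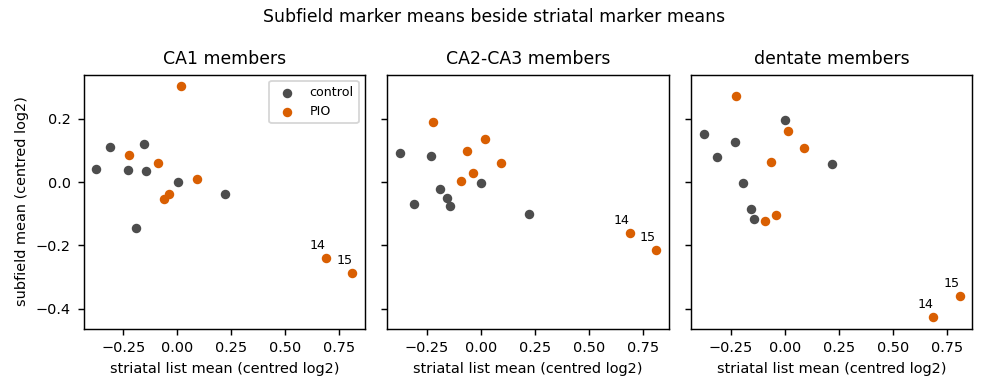
Subfield mean against striatal list mean, both in centred log2 units, with 1 point per animal. PIO animals 14 and 15 lie apart at striatal means of 0.69 and 0.81 and at the lowest subfield means, and the other 14 animals lie between -0.38 and 0.22 on the striatal axis.

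Array number was unevenly spread over the diets. Numbers 1 to 6 were in 4 control and 2 PIO animals and 10 to 24 in 4 control and 6 PIO animals. Within each range the controls had the lower numbers, 1 to 4 before PIO 5 and 6, and 10 to 13 before PIO 17 to 24. Diet and array order were thus not separated within a range. The differences given within arrays 10 to 24 compare control arrays 10 to 13 with PIO arrays 17 to 24. With diet in the model, 9 of 40 members differed between these ranges at an unadjusted p under 0.05, beside 10.2% of all genes. Of the 9, 8 were higher in arrays 1 to 6 (5.71% of all genes) and 1 was lower (4.48%). None passed limma's adjusted threshold, which 0.00815% of all genes passed, the single gene Usp2, named after its value was seen. Of the 9, C1ql2 at 0.57 (SE 0.23), Prox1 at 0.52 (SE 0.23), Gpr161 at 0.37 (SE 0.17), St18 at 0.36 (SE 0.16), Sema5a at 0.32 (SE 0.14), Mas1 at 0.28 (SE 0.095), Nptx1 at 0.17 (SE 0.061) and Cpne4 at 0.12 (SE 0.055) were higher in arrays 1 to 6. Dsp, at 0.46 (SE 0.25), was not among the 9. Pcp4 was lower there by -0.19 (SE 0.080). Both PIO animals 14 and 15 are in the upper range. Without them 6 members were counted, beside 8.22% of all genes, and Prox1 differed by 0.36 (SE 0.14). The sources used here do not say what the array number stands for.

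Other genes of the same fields, which were not members, are given by counts and medians, and none passed the test over all genes, whose median difference was 0.0045. Of 9 measured genes of CA1, 3 were higher and 6 lower with PIO, with a median of -0.028. Ccn3, a matricellular protein of CA1, differed by 0.18 (SE 0.051, adjusted p = 0.532), Dkk3 by -0.19 (SE 0.065) and the calcium buffer Calb1 by 0.15 (SE 0.059). Of 7 measured CA2 genes, 4 were higher, with a median of 0.020. Of 12 measured CA3 genes, 5 were higher and 7 lower, with a median of -0.029. Plagl1, an imprinted zinc finger gene, differed by 0.19 (SE 0.071, adjusted p = 0.681), Socs2, a suppressor of cytokine signalling, by 0.13 (SE 0.056) and Grik4, a kainate receptor subunit of CA3, by -0.16 (SE 0.091). Of 16 other dentate genes, 6 were higher and 10 lower, with a median of -0.015, and Igfbp5, an insulin-like growth factor binding protein, differed by -0.14 (SE 0.066). The mean of these 16 was -0.0025 and 0.016 in PIO animals 14 and 15, within the control range of -0.056 to 0.10. Among 6 mossy cell genes the median was 0.073, and among 8 genes of the subiculum it was 0.094, with Dlk1 at 1.03 (SE 0.30, adjusted p = 0.589). In 8 genes of newborn granule neurons 7 were higher, with a median of 0.083, and their mean was highest in PIO animals 15 and 14, at 0.32 and 0.30. Of 10 genes of hippocampal excitatory neurons 9 were lower with PIO, and their mean was -0.24 and -0.18 in PIO animals 15 and 14 and -0.18 in PIO animal 16. The mean of 15 choroid plexus genes ran from -3.02 to 2.32 in controls and from -3.21 to 2.50 with PIO. Median differences were 0.030 for 12 interneuron genes, 0.17 for 13 genes of thalamus and habenula, -0.013 for 13 neocortical genes, -0.24 for 14 myelin genes, -0.20 for 13 microglial genes and -0.068 for 13 astrocyte genes. The mean of the neocortical genes was highest in PIO animals 15 and 14, at 0.44 and 0.33, and that of thalamus and habenula in PIO animal 16, at 1.07. The part of these tissues in the members' values was not tested.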

How the data were processed

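Hippocampal RNA of 16 animals was read on 16 Affymetrix arrays, grouped by diet from the sample titles. The deposited values are log2 expression, 1 per probe set and array, with the scale taken from the values (0.33 to 16.6, array medians 5.65 to 5.76). The submitters' processing notes list MAS5, GCRMA and R 2.7.1 and give none of them a role, so the step that made the values is not known here. GCRMA can widen differences of dim probe sets. Of 45101 probe sets, 64 controls were left out and 34945 had 1 gene symbol in the platform annotation. Probe sets with a mean above the 40th percentile were kept, and the brightest stood for each of 12266 genes. Limma 3.58.1 in R 4.3.3 (lmFit, eBayes) was fitted over all genes with Benjamini-Hochberg adjustment and tested on simulated data. The members and lists were chosen with earlier results of these data known. All 40 members are named. Values in full are given for those at an unadjusted p under 0.05 and, per subfield, the 2 with the widest range for their SE, with up to 3 genes of the other lists by smallest p; the lowest values in PIO animals 14 and 15 were singled out after they were seen. Array batch is the code that ends the array description. Other settings were the filter, the probe set, normalization, batch, array number, prior, array weights, tissue marker covariates, animals left out and a plain two-sample test. The number of arrays limits the precision.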

Additional observations from a re-analysis of the deposited data

Results flagged for a closer look

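Of 92 checks of 1 diet group for a sample far from the rest, 9 passed Dixon's limit for 8 samples, where chance gives about 1 in 20. In controls, Lypd1 stood at 10.18 in animal 5 (nearest 9.58), Rgs14 at 11.16 in animal 4 (nearest 10.95) and Npnt at 9.08 in animal 7 (nearest 9.29). C1ql2 stood at 8.54 in control animal 5 (nearest 9.45), Spock1 at 12.44 in control animal 2 (nearest 12.61) and Stxbp6 at 12.16 in control animal 1 (nearest 12.32). With PIO, Mpped1 stood at 10.85 (nearest 10.53) and Spock1 at 12.73 (nearest 12.60) in animal 13, and Pdzd2 at 9.32 in animal 16 (nearest 9.62). The low values of PIO animals 14 and 15 were not picked out this way, since the check looks for 1 sample alone.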

How the results depend on the processing

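No gene and no member passed the adjusted threshold in the 18 alternatives or in the 16 fits without 1 animal. Members at an unadjusted p under 0.05, 7 in the reported fit, numbered 0 in the largest array batch alone, 2 with the striatal mean as a covariate, 1 with the myelin mean, 2 without PIO animals 14 and 15 and 2 without them with array number range as a block, the last chosen after seeing the data. Leaving out 1 animal gave 4 (control animal 7, control animal 8 or PIO animal 15) to 11 (PIO animal 10). No paired analysis was possible because the animal numbers are not shared between the diets. The CA2 and CA3 median difference, -0.031, was 0.107 with the striatal covariate, 0.141 with the myelin covariate and 0.037 in the largest array batch alone. It was 0.073 without PIO animals 14 and 15 and 0.098 without them with the range block. Fits without 1 animal gave -0.048 to 0.0098 for this median. Those fits gave -0.14 to -0.028 for the CA1 median and -0.18 to -0.064 for the dentate median. The CA1 median, -0.094, and the dentate median, -0.11, also turned: to 0.034 and 0.046 with the striatal covariate, 0.034 and 0.046 with the myelin covariate, 0.027 and 0.025 without PIO animals 14 and 15, and 0.024 and 0.041 without them with the range block; in the largest batch alone they were 0.0010 and -0.018. The fits without 1 animal gave -0.16 to -0.11 for the balance of dentate over CA2 and CA3. These fits gave -0.095 to -0.038 for dentate over CA1 and -0.10 to -0.055 for CA1 over CA2 and CA3. Dentate over CA1, -0.062, was -0.14 in arrays 10 to 24, 0.014 with the myelin covariate and 0.0036 with the median of members; dentate over CA2 and CA3 was below 0 in every alternative run. The 1 gene past the adjusted threshold between array number ranges became 0 without PIO animals 14 and 15, an alternative also chosen after seeing the data. No difference of the 7 members changed sign, and that of Stxbp6 was -7.40e-04 as the mean of its probe sets. The cause of these shifts was not tested. The arrays give no count, so precision rests on the 8 animals per diet.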
